A study of Glycine max with 6 samples.

Results

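Chromosome 13 of soybean (Glycine max) carried 15454 of the 213988 peaks that were called for the proteins GLYMA.06G314400 and GLYMA.13G317000 in early maturation embryos, the stage at which the seed begins to fill with reserves. The peaks are regions enriched in chromatin immunoprecipitation with sequencing (ChIP-seq), in which an antibody recovers DNA crosslinked to a protein. All peaks placed on chromosome 13 in the 4 deposited lists were taken, with no filter on height, and were assigned to windows of 1 Mb by their summit, the base of highest signal. The chromosome was chosen by its peak density, the highest of all 20, and by the positions of its summits, which were not concentrated in the outer parts. Density and position are therefore described here without a test against the other chromosomes.

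Embryos came from seeds of 6 to 7 mm on greenhouse-grown plants of the cultivar Williams 82, and all samples were fixed in 1% formaldehyde. The antibody for GLYMA.06G314400 (3 µg) was raised against its residues 302 to 316, and that for GLYMA.13G317000 (2 µg) against its residues 1 to 15. Each protein had 2 biological replicates, and 2 input samples of unprecipitated chromatin had no list of their own. No line lacking either protein was among the samples analysed, so enrichment is relative to the background of the peak caller and not to a mutant.

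Soybean chromosomes typically have gene-rich arms on both sides of a long, repeat-rich pericentromere, where genes are sparse and recombination is rare. Transcription factors bind mostly in open chromatin near genes, and peak lists of such proteins therefore tend to be fuller in the arms. By the convention of soybean gene identifiers, the gene of GLYMA.13G317000 lies on chromosome 13 and that of GLYMA.06G314400 on chromosome 6. Genes, the centromere and DNA motifs are not placed on the chromosome here, since the genome build of the coordinates is not given in the sources at hand.

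Chromosome 13 held 4321 and 3762 peaks in replicates 1 and 2 of GLYMA.06G314400, and 4191 and 3180 peaks in those of GLYMA.13G317000. The other 19 chromosomes held 197373 peaks in all 4 lists together, and scaffolds 1161. The end of the last peak on chromosome 13, at base 45827573, was used as its length, which was the 13th longest of 20. Chromosome 13 was thus of ordinary length but had the most peaks in each list. Its density was 94.3 and 82.1 peaks per Mb for GLYMA.06G314400, against 49.7 to 85.5 and 43.5 to 74.4 on the other chromosomes. For GLYMA.13G317000 it was 91.5 and 69.4 peaks per Mb, against 47.7 to 83.0 and 33.3 to 61.7. The next densest was chromosome 11 in each list.

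The peaks of chromosome 13 were few in its first 20% segment and many in its middle and last ones, whereas on the other chromosomes most lay in the outer segments. The first 20% segment of its length held 2.13% and 2.23% of its GLYMA.06G314400 peaks and 1.91% and 2.01% of its GLYMA.13G317000 peaks. The last segment held 32.1%, 32.2%, 32.3% and 30.9%, in the same order of lists. The low first segment set chromosome 13 apart from the others, whereas the share of the last segment was within their range. By peak number, its last segment ranked 4, 4, 3 and 3 from the highest in the lists. In replicate 1 of GLYMA.06G314400 the other chromosomes had 15.2% to 53.9% in their first segment and 16.9% to 52.9% in their last. The middle segment held 25.2% of the peaks of chromosome 13 in that list, against 2.06% to 8.07% elsewhere. The outer segments together, 40% of the length, held 32.9% to 34.4% of the peaks of chromosome 13 across the lists. The lowest share among the other chromosomes was 58.0%, on chromosome 8 in replicate 1 of GLYMA.06G314400.

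**Figure D1:**
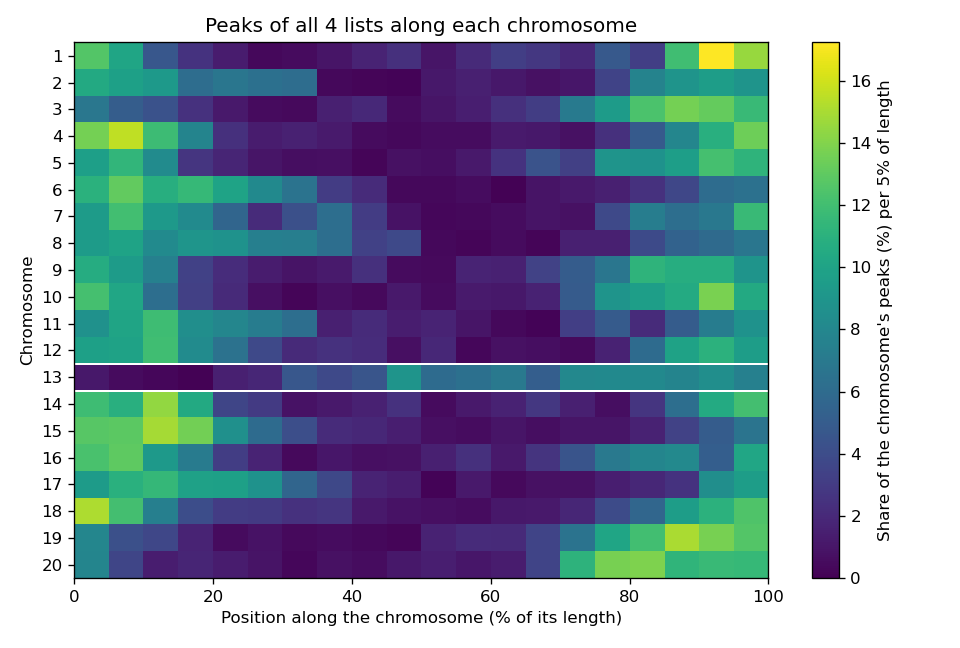
Peaks of all 4 lists along each chromosome. Rows are chromosomes, columns are twentieths of the chromosome length by summit, and colour is the share (%) of that chromosome's peaks; chromosome 13, between white lines, is dark over its first segment and filled from its middle to its end, while the other rows are dark in the interior.

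Along the 46 windows, 4 stretches could be told apart by eye, and their borders were drawn after the counts were seen. Windows 1 to 3, from base 1 to 3000000, held a small group of peaks at the chromosome start, with 65 and 61 for GLYMA.06G314400 and 61 and 55 for GLYMA.13G317000. That is 18.3 to 21.7 peaks per Mb. Windows 4 to 10, from 3000001 to 10000000, were nearly empty, with 33 and 29 peaks for GLYMA.06G314400 and 25 and 12 for GLYMA.13G317000, or 1.71 to 4.71 per Mb. Windows 11 to 20 rose to 44.6 to 62.4 peaks per Mb. From window 21 to the end, at 103 to 139 peaks per Mb, lay 83.1% to 83.9% of the peaks of the chromosome in each list.

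The nearly empty stretch was common to both proteins. Windows 4 to 10 were the only windows of chromosome 13 that stayed below 25% of the chromosome's mean in all 4 lists, 7 windows in a row. The emptiest was window 9, from 8000001 to 9000000, with 1 and 2 peaks of GLYMA.06G314400 and 1 and 0 of GLYMA.13G317000. Window 4 had 3 and 3 against 1 and 1, and window 8 had 4 and 4 against 2 and 2. The longest interval without a peak in any list ran from 3073107 to 4610545, a length of 1537439 bp. Only 1 other chromosome had a longer one, and the longest intervals of the others ranged from 666790 to 1577040 bp. The read depth is unknown, so an empty window does not show that binding was missing.

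**Figure D2:**
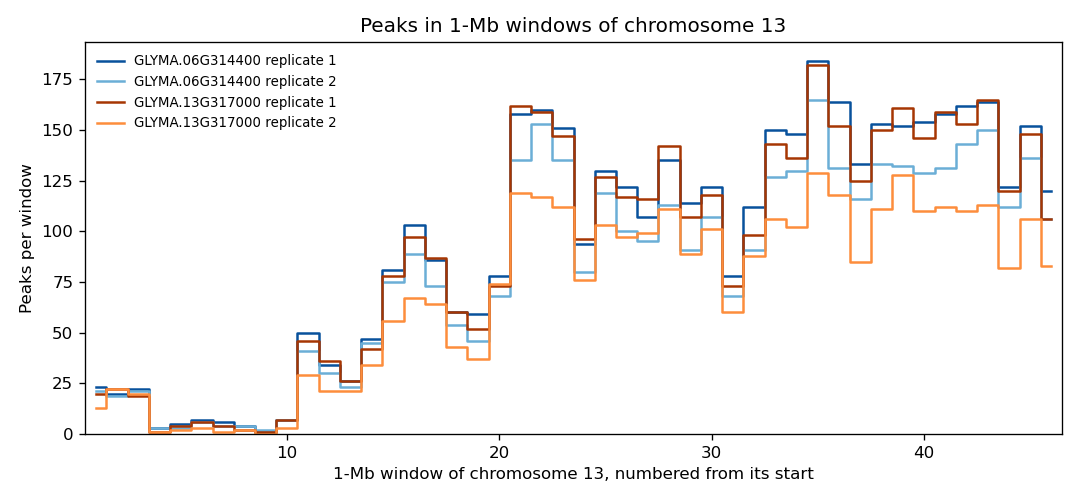
Peaks per 1-Mb window of chromosome 13 (y axis) against the window number from the chromosome start (x axis), one line per list. All 4 lines stay under 25 peaks through window 10, climb unevenly to windows 21 and 22 and stay at 60 or more from there on, with their lowest point in window 31; the last window is shorter than 1 Mb.

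Such a sparse stretch was present on the other chromosomes as well, and on chromosome 13 it differed in place, not in length. With 25% of the mean over all chromosomes as the limit in every list, the longest sparse run of chromosome 13 was again 7 windows, against 3 to 13 windows (median 6) elsewhere. Its centre lay at 14.2% of the chromosome length. On the other 19 chromosomes the centre lay between 29.0% (chromosome 1) and 70.6% (chromosome 15). In total 15.2% of the windows of chromosome 13 were sparse by this limit, and only chromosome 11 had a smaller share (14.3%).

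Chromosome 13 had more full windows than any other chromosome, and their fullness was within the range of the others. Of its 46 windows, 30 (65.2%) were at or above the mean of all chromosomes in every list, against 26.3% to 58.3% on the other chromosomes. Of these, 27 followed one another without a break, and the longest such run elsewhere had 18 windows. Within the full windows, the mean was 132 and 114 peaks for GLYMA.06G314400 and 128 and 97.6 for GLYMA.13G317000. Up to 4 other chromosomes had fuller ones, with means of up to 139, 122, 136 and 102 in the same order.

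The 3 fullest windows all lay in the dense stretch from window 21 to the end. Window 35, from 34000001 to 35000000, held 184 and 165 peaks of GLYMA.06G314400 and 182 and 129 of GLYMA.13G317000. Window 43, from 42000001 to 43000000, held 164 and 150 against 165 and 113. Window 22, from 21000001 to 22000000, held 160 and 153 against 159 and 117. In all of these windows replicate 2 of GLYMA.13G317000, the shortest list, was the lowest. The fullest windows of other chromosomes reached 203 peaks in replicate 1 of GLYMA.06G314400.

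The profiles of the proteins along chromosome 13 were much alike. Across the 46 windows the peak numbers of any 2 lists had a Spearman rho of 0.968 to 0.991 and a Pearson r of 0.981 to 0.996. These windows share the chromosome, its mappable sequence and possibly the inputs, so the values only describe the likeness. Peak density was 88.2 ± 8.63 per Mb for GLYMA.06G314400 (SD, n = 2), against 80.4 ± 15.6 for the other protein (SD, n = 2), a difference within the spread of replicates (exact permutation p = 0.667, two-sided). As a share of each list, chromosome 13 made up 7.08% ± 0.0317 of the GLYMA.06G314400 peaks and 7.41% ± 0.266 of the GLYMA.13G317000 peaks (SD, n = 2 per protein). Both GLYMA.13G317000 lists were above both GLYMA.06G314400 lists in this share, and the exact permutation p was 0.333, two-sided, the smallest that 2 lists against 2 can give. The outer segments held 34.3% ± 0.173 and 33.6% ± 0.913 (SD, n = 2 per protein; exact permutation p = 0.667, two-sided).

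In 36 windows with at least 20 peaks in every list, there were 0.875 to 1.08 GLYMA.13G317000 peaks per GLYMA.06G314400 peak in replicate 1, with 0.970 over the whole chromosome. In replicate 2 the range was 0.700 to 1.09, with 0.845 over the whole chromosome. The highest ratio in replicate 2 was that of window 20, from 19000001 to 20000000. There, replicate 2 of GLYMA.13G317000 had 74 peaks and its replicate 1 had 73, while over the whole chromosome replicate 2 had 0.759 peaks per peak of replicate 1. In replicate 1 the ratio of the proteins in window 20 was 0.936.

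Median peak height on chromosome 13, by the fold enrichment (a ratio) that the authors deposited, lay within the range of the other chromosomes in each list. The medians were 5.98 and 7.35 for GLYMA.06G314400, against 5.95 and 7.16 on the other chromosomes pooled, and 5.57 and 5.24 for GLYMA.13G317000, against 5.53 and 5.399. The mean difference was 0.0254 ± 0.141 (SD, n = 4 lists), positive in 3 of 4 lists (exact sign-flip permutation p = 0.625, two-sided). The smallest p that 4 lists allow is 0.125. The lists of both proteins may share inputs, so they are not fully independent. The median of replicate 2 of GLYMA.13G317000 ranked 18 of 20 from the highest. The tallest peak of chromosome 13 was below that of every other chromosome in both replicate 2 lists, at 59.9 against 60.5 to 82.3 for GLYMA.06G314400 and 33.42 against 33.43 to 54.6 for GLYMA.13G317000. In the replicate 1 lists it ranked 2 and 7. The share of peaks in the tallest 10% of each list was close to that of all chromosomes. Of its peaks, 10.3%, 10.7%, 10.4% and 9.65% belonged to that group, against 9.99%, 9.99%, 9.99% and 10% over all 20 chromosomes.

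Median peak width was 2 to 5 bp above that of the other chromosomes in each list. The medians were 514 and 441 bp for GLYMA.06G314400 and 426 and 375 bp for GLYMA.13G317000, against 512, 436, 422 and 373 bp elsewhere. The mean difference of 3.25 ± 1.5 bp (SD, n = 4 lists) was positive in 4 of 4 lists, with an exact sign-flip permutation p of 0.125, two-sided, the smallest possible. In the 4 lists 6, 5, 2 and 7 of the other chromosomes had wider medians, so the width does not single out chromosome 13. Peaks covered 5.61% and 4.09% of the chromosome for GLYMA.06G314400 and 4.39% and 2.88% for GLYMA.13G317000, the largest share of any chromosome in each list.

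Median height was lower in the nearly empty stretch than in the dense part in each list. In the nearly empty windows 4 to 10, median fold enrichment was 4.48 and 5.13 for GLYMA.06G314400 and 4.75 and 4.36 for GLYMA.13G317000. From window 21 to the end it was 6.05, 7.40, 5.57 and 5.29. The medians of the sparse stretch rest on only 12 to 33 peaks each and were not tested. Of these peaks 1, 1, 1 and 0 reached the tallest 10% of their lists. The 3 windows before that stretch had medians of 6.34, 7.93, 5.86 and 5.17, close to those of the dense part. Across windows with at least 20 peaks, the Spearman rho of peak number with median fold enrichment was −0.0163 to 0.209 (38 or 39 windows per list), which leaves out windows 4 to 10. Outer minus inner segments, the median fold enrichment differed by −0.199 ± 0.148 (SD, n = 4 lists) and was lower outside in 3 of 4 lists (exact sign-flip permutation p = 0.25, two-sided). With 25% of the length at each end taken as outer, the difference was −0.0134.

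**Figure D3:**
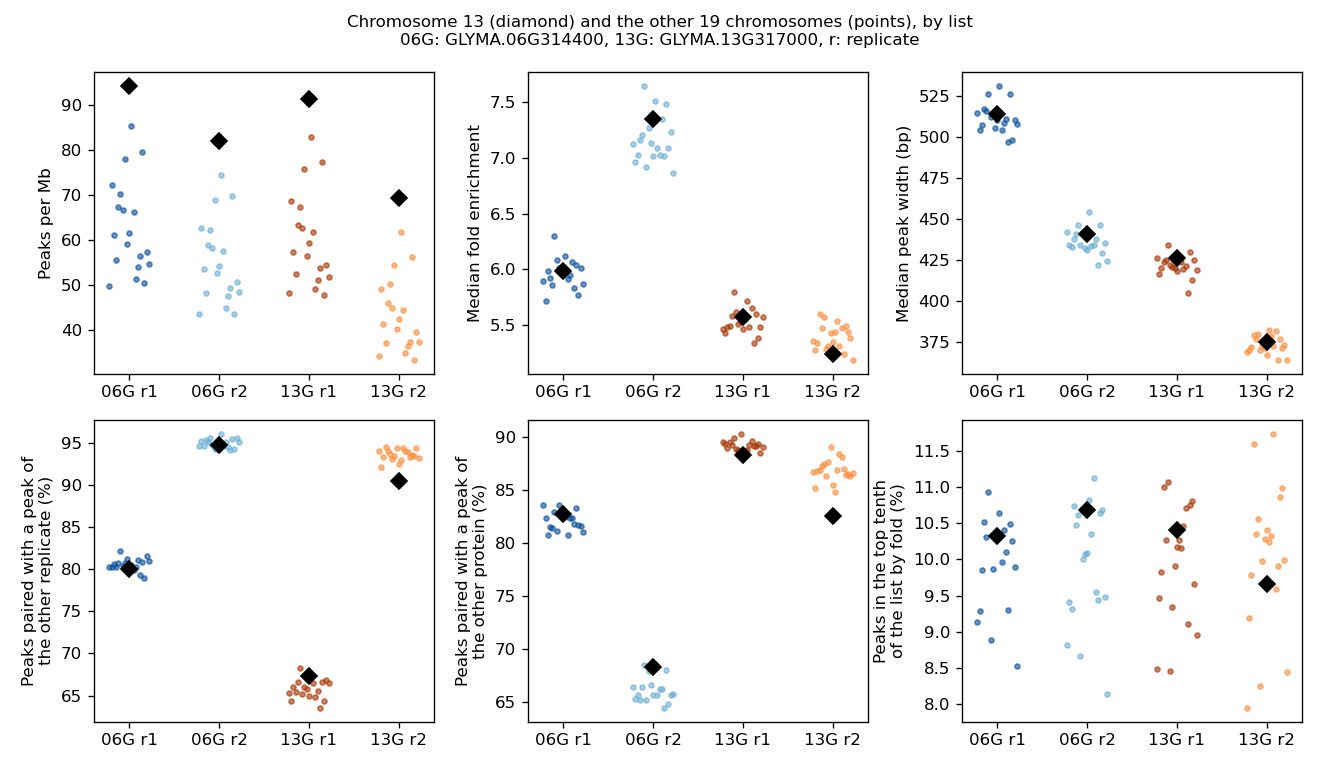
Values of chromosome 13 (black diamonds) and of the other 19 chromosomes (points) in each list, for density, median fold enrichment, median width (bp), pairing with the other replicate, pairing with the other protein, and share in the top 10% by fold enrichment; axes do not start at 0. Chromosome 13 is highest in density in all lists and lowest in both kinds of pairing in replicate 2 of GLYMA.13G317000 (90.4% and 82.6%).

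Peaks of chromosome 13 recurred between replicates about as often as others, with 1 list as the exception. A peak was counted as recurring if it overlapped a peak of the other replicate by at least 50% of the shorter. For GLYMA.06G314400, 79.96% of replicate 1 peaks and 94.7% of replicate 2 peaks recurred, against 80.5% and 94.9% over all 20 chromosomes. For GLYMA.13G317000 the shares were 67.4% and 90.4%, against 66% and 93.3%. The value of replicate 2 was the lowest of all chromosomes, which otherwise ranged from 92.1% to 94.4%, while that of replicate 1 was second highest. The shares of both replicates count largely the same pairs, so their contrast moves with the ratio of peak numbers and is not 2 separate observations. Replicates 2 and 1 of GLYMA.13G317000 had 3180 and 4191 peaks on chromosome 13, and 38455 and 53536 on the other chromosomes. Over the 4 lists, chromosome 13 minus the other chromosomes was −0.603 ± 1.92 percentage points (SD, n = 4; exact sign-flip permutation p = 0.625, two-sided). The test flips each list by itself, although the 2 lists of a protein are linked in this measure, so n = 4 overstates the replication.

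Pairing with the other protein in the same replicate number showed the same list. On chromosome 13, 82.8% and 68.4% of the GLYMA.06G314400 peaks in replicates 1 and 2 were paired, against 82.2% and 66.5% over all 20 chromosomes. Of the GLYMA.13G317000 peaks, 88.3% and 82.6% were paired, against 89.1% and 86.5%. Both GLYMA.13G317000 values were the lowest of any chromosome in their lists. The shares of both proteins count largely the same pairs, so their contrast moves with the ratio of peak numbers. In replicate 2 there were 0.845 GLYMA.13G317000 peaks per GLYMA.06G314400 peak on chromosome 13 and 0.781 on the others, and in replicate 1 there were 0.970 and 0.953. The difference from the other chromosomes over 4 lists was −0.642 ± 2.68 percentage points (SD, n = 4; exact sign-flip permutation p = 0.75, two-sided). Here too the lists are linked, by replicate number, so n = 4 overstates the replication. The 8 comparisons tested here had a Benjamini-Hochberg adjusted p of 0.75 each.

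All peaks were then merged into loci wherever they overlapped by at least 1 base, which gave 5171 loci on chromosome 13. Of these, 2473 (47.8%) held a peak in all 4 lists, against 48.1% over all 20 chromosomes. A further 803 (15.5%) held peaks in 3 lists, against 16.9%, the lowest share of any chromosome, and 386 (7.46%) in 1 list of each protein, against 7.17%. Both lists of GLYMA.06G314400 and none of GLYMA.13G317000 were found in 283 loci (5.47%, against 5.67%). The reverse was found in 163 loci (3.15%, against 2.82%). The remaining 1063 loci (20.6%, against 19.3%) rested on 1 list, the highest share of any chromosome. The share of loci with all 4 lists was 40.4% of 114 in the first segment and 47.3% to 48.9% in the other segments. Apart from the sparse end, loci with all 4 lists thus made up about the same share along the chromosome.

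Loci with all 4 lists had the highest medians of any kind of locus on chromosome 13. The kinds were defined by the peak calls, which depend on height, so this order is not a separate result. In the loci with all 4 lists, median fold enrichment was 10.1 and 10.6 in the GLYMA.06G314400 lists, and in the others 8.40 and 5.91. On the other chromosomes it was 10.3, 10.7, 8.39 and 5.88. In 2259 such loci of chromosome 13 with exactly 1 peak in each list, the summits of different proteins lay a median of 19 bp apart in replicate 1 and 21 bp in replicate 2. Between replicates the distance was 17 bp with GLYMA.06G314400, and with the other protein 19 bp. On the other chromosomes these 4 distances were 19, 21, 17 and 20 bp.

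The strongest loci of each 20% segment were about 1 kb wide in most cases. They were taken from the loci with all 4 lists, ordered by the lowest of the 4 percentile ranks that their fold enrichments had within the lists, with 3 per segment. In the first segment all 3 lay before the nearly empty stretch. The first, from 2558442 to 2559506, reached 33.1 and 51.9 in the GLYMA.06G314400 lists, against 29.1 and 24.6 in those of GLYMA.13G317000. The locus from 1044134 to 1045087 had 29.5 and 38.1 against 30.8 and 19.1, and that from 633706 to 634603 had 32.2 and 23.2 against 29.1 and 13.54. The last of these reached a percentile of only 90.03 in its lowest list, whereas the first stood at 98.7. Tall sites were thus present at the sparse end as well.

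In the second segment the strongest locus ran from 13161385 to 13162683, with 45.5 and 46.4 for GLYMA.06G314400 and 42.2 and 25.8 for GLYMA.13G317000. Its 4 summits lay within 9 bp. The locus from 10767602 to 10768726 had 39.8 and 46.1 against 38.4 and 27.3, just past the end of the nearly empty stretch. The locus from 14975658 to 14976641 had 36.8 and 42.7 against 32.3 and 22.2. In the third segment, the locus from 20717860 to 20718876 had 47.5 and 57.3 against 37.2 and 28.7. That from 23203985 to 23205063 had 40.6 and 47.9 against 36.6 and 27.2. The locus from 21184773 to 21186487 was split into 2 peaks in 3 of the 4 lists, with highest values of 37.8 and 48.3 against 36.6 and 26.4.

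The fourth segment held the strongest locus of chromosome 13 by this order, from 31604504 to 31606526, with 43.9 and 58.9 against 41.6 and 33.4. The last value was the highest fold enrichment of replicate 2 of GLYMA.13G317000 on this chromosome. Close behind was the locus from 34803560 to 34804630, with 42.6 and 59.1 against 43.5 and 33.0. It lies in the fullest window of the chromosome. The locus from 35374830 to 35375919 had 40.5 and 50.8 against 36.9 and 26.4. In the last segment, the locus from 42155348 to 42156378 had 43.3 and 55.5 against 37.5 and 30.5. That from 39901899 to 39902980 had 37.4 and 55.1 against 38.3 and 29.5, and that from 40628600 to 40629494 had 34.3 and 52.8 against 32.6 and 27.8. Over these 15 loci the 4 summits lay within 9 to 41 bp.

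Loci of a single protein had low medians on chromosome 13, as did those with peaks in 3 lists (3.74 to 4.83). Here too the kinds were defined by calls that depend on height. The tallest of the 283 GLYMA.06G314400-only loci by the same order ran from 45355298 to 45355669, with fold enrichments of 8.20 and 8.48. The loci from 35189955 to 35190453 (7.23 and 8.21), from 32914314 to 32914800 (6.46 and 7.33) and from 35180719 to 35181461 (6.16 and 7.33) followed. Of the 163 GLYMA.13G317000-only loci, the tallest ran from 34077152 to 34077723, with 7.46 and 12.0. The loci from 24530560 to 24531106 (5.83 and 9.19), from 24747637 to 24748088 (5.43 and 6.21) and from 39395513 to 39395888 (5.37 and 7.35) came next. Medians over all single-protein loci were 3.95 and 4.45 for GLYMA.06G314400 and 3.64 and 4.54 for GLYMA.13G317000. The named loci were chosen for their height and so stand above these medians. The highest fold enrichment of any GLYMA.06G314400-only locus, 8.75 and 8.53 in its lists, was below the median of the loci with all 4 lists. For GLYMA.13G317000-only loci this held in replicate 1, with 7.46 against a median of 8.40. In replicate 2 that median was 5.91, and all 4 named GLYMA.13G317000-only loci were above it.

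Most GLYMA.13G317000-only loci were spread over the chromosome, with 1, 16, 47, 41 and 58 in the 20% segments from its start to its end. A group of them lay close together in 1 place, chosen after the values were seen. The 100-kb stretch from 38800001 to 38900000 held 11 of the 163. No other 100-kb stretch of chromosome 13 held more than 3, and the fullest on any other chromosome, on chromosome 11, held 5. The 11 loci lay between 38810635 and 38873486, and their fold enrichments were low, 2.06 to 3.74 in replicate 1 and 2.36 to 4.52 in replicate 2. Low peaks were not limited to them. Over all peaks of the stretch the medians were 3.05 and 3.85 for GLYMA.06G314400 and 2.63 and 3.40 for GLYMA.13G317000. The medians of the whole lists were 5.96, 7.18, 5.54 and 5.38. GLYMA.06G314400-only loci were not found in this stretch, and their fullest stretches held 4 on chromosome 13 and 6 elsewhere.

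In that stretch GLYMA.13G317000 had 35 peaks in replicate 1 and 29 in replicate 2, and GLYMA.06G314400 had 17 and 14. Both peak numbers of GLYMA.13G317000 were thus above both of GLYMA.06G314400, in a stretch picked for its GLYMA.13G317000-only loci. Among all 100-kb stretches of the 20 chromosomes with a peak, it was the fullest in replicate 1 of GLYMA.13G317000 and was exceeded by 1 other in its replicate 2. For GLYMA.06G314400 it ranked 644 and 866. Peaks of GLYMA.13G317000 covered 23584 and 22801 bp of it, and those of GLYMA.06G314400 covered 9645 and 7033 bp. The stretch also held 12 loci with all 4 lists, such as that from 38877471 to 38878293, with 13.1 and 16.2 against 13.3 and 12.1.

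The same stretch contained the widest locus with all 4 lists on any of the 20 chromosomes, from 38843375 to 38848399, 5025 bp wide. Replicate 2 of GLYMA.13G317000 covered it with a single peak of 5015 bp and a fold enrichment of 5.02, the widest of that list. Replicate 1 had 2 peaks there, of 3194 and 1687 bp, with fold enrichments of 3.37 and 5.67. GLYMA.06G314400 had 1 peak of 509 bp (3.67) and 1 of 434 bp (3.67), both at the far end. The next widest loci of chromosome 13 were tall and filled by both proteins. The locus from 34698680 to 34701513 had 22.5 and 26.1 against 14.2 and 11.4, and that from 38121797 to 38124515 had 28.9 and 48.1 against 27.7 and 31.6.

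**Figure D4:**
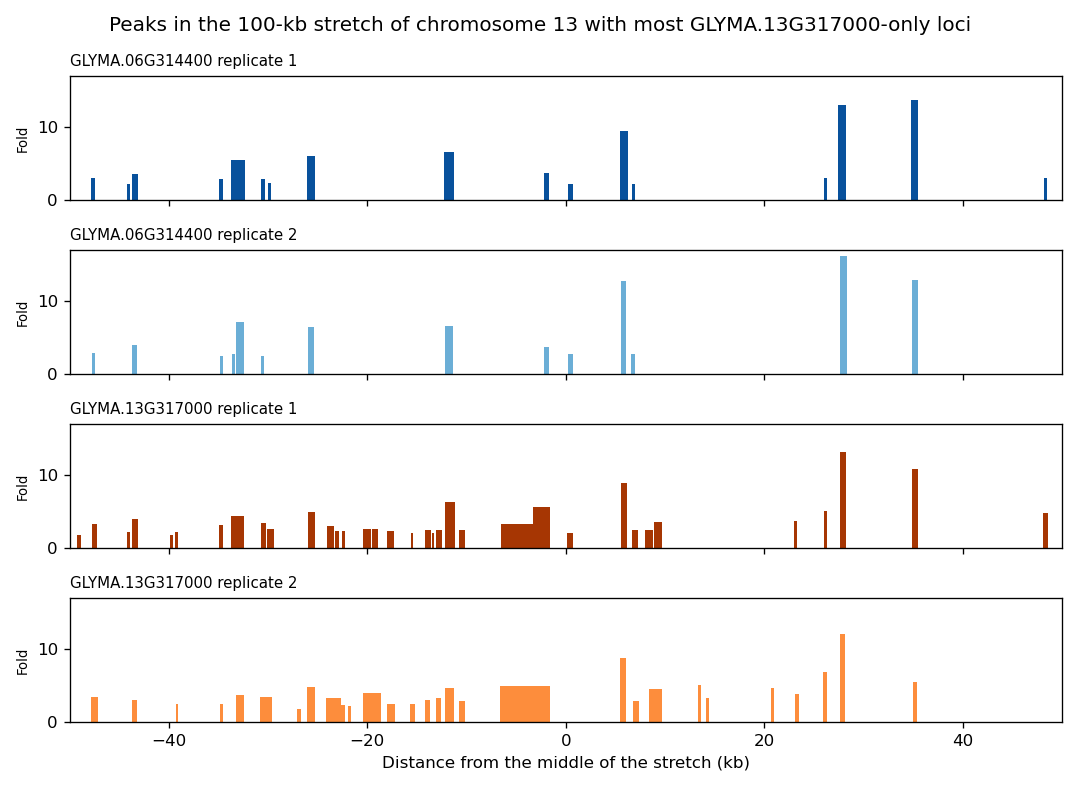
Peaks within the 100-kb stretch with 11 GLYMA.13G317000-only loci; each bar spans a peak (x axis, distance from the middle of the stretch in kb) and its height is the deposited fold enrichment, one panel per list. Both GLYMA.13G317000 panels hold low, wide peaks in the left part that the GLYMA.06G314400 panels lack, 35 and 29 peaks against 17 and 14.

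Loci seen in 1 list alone were unusually many in 1 of the 4 lists, a pattern chosen after the values were seen and not tested. Replicate 2 of GLYMA.13G317000 had 265 such loci on chromosome 13, 5.12% of all loci there, against 2.51% to 3.90% on the other chromosomes. They were 8.33% of its peaks on chromosome 13, also the highest value. Such peaks overlap no peak of another list, so they also enter the low recurrence and pairing shares of that list given above. The corresponding shares of all loci in the other lists were 8.35% for replicate 1 and 2.34% for replicate 2 of GLYMA.06G314400, and 4.74% for replicate 1 of GLYMA.13G317000. These lay within the range of the other chromosomes. Windows 20 to 32 were picked after these counts were seen, and their borders are the fullest windows for such loci of this list. They held 55.8% of the 265 loci but 39.2% of all peaks of that list on the chromosome, these loci included. The excess follows in part from that choice. In the other lists these windows held 36.6% to 41.3% of such loci and 36.0% to 36.6% of peaks.

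The fullest windows for such loci of replicate 2 of GLYMA.13G317000 were window 32 with 22 and window 20 with 20. In window 32 the share of its peaks that recurred in replicate 1 was 75%, and in window 20 it was 70.3%, the lowest values among windows with at least 20 peaks. Loci seen in 1 list alone do not recur by definition, so these shares partly restate the same counts. Within the stretch from 27100001 to 27200000 that list had 19 peaks and 15 loci seen in it alone, against 5 in replicate 1 and 3 and 3 with GLYMA.06G314400. From 31400001 to 31500000 it had 17 peaks and 10 such loci. Median fold enrichment over all 265 loci was 3.47. With 1 list behind them, these loci have no replicate check, and depth, which is unknown, could not be compared.

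**Figure D5:**
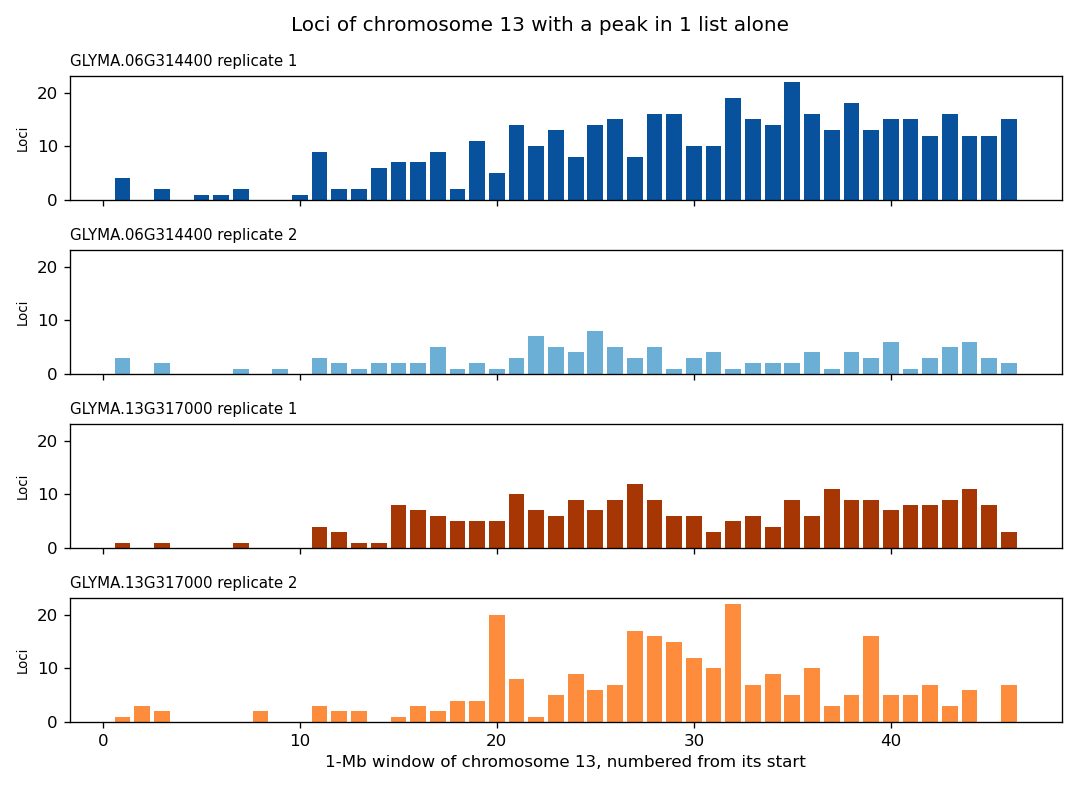
Loci of chromosome 13 with a peak in only 1 list, per 1-Mb window (x axis, window number; y axis, number of loci), one panel per list. The bars of replicate 2 of GLYMA.13G317000 reach 20 in window 20 and 22 in window 32, and its total is 265; replicate 1 of GLYMA.06G314400 has more such loci, 432, with its fullest window at 35.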

How the data were processed

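Libraries were amplified with 15 PCR cycles from chromatin sheared to 100 to 500 bp, per the labels. Per the submitters' processing notes, Bowtie 0.12.7 and MACS2 were used; the genome build, the version of MACS2, its control and the handling of duplicate or multiply mapping reads were not stated in the labels or files. The authors deposited 1 peak list per precipitated sample, with a fold enrichment (ratio), a −log10 p, a −log10 q and a score per peak; reads per list are unknown.

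Peaks were read with pandas 2.3.3 in Python 3.11.15. Chromosome length was the end of the last peak in any list. Windows had 1000000 bp, and full windows were compared with the mean over 20 chromosomes. Peaks were paired at 50% of the shorter peak. Coordinates are 1-based. Values between proteins were tested by exact permutation of lists, and differences of chromosome 13 from the others by exact sign-flips over lists. The overlap routines were tested on 3000 simulated peaks, all answered as by direct comparison. Members, windows and lists were chosen with earlier results of these data known. The rule for named items took 3 loci per 20% segment of the length, 4 per protein alone, the 3 widest, and the 3 fullest and 3 emptiest windows; the rule had been written for genes, which could not be placed. Stretches of 100 kb, single-list loci and the 4 stretches of windows were chosen after the values were seen. With 2 lists per protein, p-values measure only the spread between these lists. DNA motifs, planned if a genome of the build was at hand, were not analysed here.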

Additional observations from a re-analysis of the deposited data

Results flagged for a closer look

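Pairing with the other protein differed from the other chromosomes in opposite directions for the proteins. It was higher on chromosome 13 in both GLYMA.06G314400 lists, by 1.29 percentage points on average, and lower in both GLYMA.13G317000 lists, by −2.57 percentage points on average. This difference between the proteins was not tested. Both shares count largely the same pairs, so their contrast also moves with the ratio of peak numbers, which was 0.845 GLYMA.13G317000 peaks per GLYMA.06G314400 peak on chromosome 13 and 0.781 elsewhere in replicate 2. The largest deviation (−4.23) was that of replicate 2 of GLYMA.13G317000. Its share of loci seen in it alone (5.12%) was above that of every other chromosome. Peaks of such loci are unpaired by definition, so both values partly count the same peaks and are not separate observations.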

How the results depend on the processing

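The comparisons were repeated with stricter peaks (−log10 q of 5 or more), equal list lengths, other overlap rules, midpoints in place of summits, outer parts of 25%, chromosome medians, merging at 50 bp, 500-kb windows and each list left out. The design cannot reach a p of 0.05, so only directions can be compared. The density difference between the proteins turned to −2.44 peaks per Mb at equal list lengths, where list length no longer adds to it by construction. At equal lengths it only restates the difference in list share, which was −0.268 percentage points there and −0.326 at full length. The density difference ranged from −3.26 to 18.8 when a list was left out, the lower value without replicate 2 of GLYMA.13G317000. The fold enrichment difference of chromosome 13 ranged from −0.0282 to 0.0861 and was negative without replicate 2 of GLYMA.06G314400; the cause was not tested. No other comparison changed direction under these settings, but several sizes rested on 1 list. The difference in outer share was 1.40 percentage points without replicate 1 of GLYMA.13G317000 and 0.111 without its replicate 2, and that in list share −0.514 and −0.138. The pairing difference with the other protein was −1.10 without either replicate 1 list and −0.183 without either replicate 2 list. At equal list lengths the recurrence difference was −0.247 and the pairing difference −0.331; with stricter peaks they were −0.373 and −0.185. The number of sparse windows was 7 to 8 with a list left out (added after the data were seen) and 9 Mb at 500 kb. Loci in all remaining lists numbered 2491 to 3144, and 2476 at the 50-bp rule. With the replicate number as a block, density differed by 7.77 per Mb (exact sign-flip permutation p = 0.5), list share by −0.326 percentage points (p = 0.5) and outer share by 0.757 (p = 1.0), the smallest possible p being 0.5; with 2 pairs the numbers are not known to pair the samples, and replicate ratios of the proteins correlated at −0.0985 across 36 windows.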
